A study of Mus musculus with 4 samples.

Results

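Open chromatin was examined at 10 genes of bone morphogenetic protein (BMP) signalling in mouse hair follicle stem cells labelled Irx5KO, for a knockout of the transcription factor gene Irx5, and WT. The genes were the ligands Bmp2, Bmp4 and Bmp6, the receptors Bmpr1a and Bmpr2, the ID genes Id1, Id2 and Id3, and the secreted antagonists Nog and Grem1. They were taken as a fixed set of pathway members out of 21887 protein-coding genes. A peak belonged to a gene if it overlapped the gene body or the 50 kb on either side of it. This rule assigned to the 10 genes 179 of the 484992 peaks listed for Irx5KO and 172 of the 498061 listed for WT. A peak was called shared if it overlapped a peak of the other list by at least 1 bp, and genotype-only otherwise.

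The data were ATAC-seq, in which the Tn5 transposase inserts adapters into accessible DNA. The cells were hair follicle stem cells sorted as Ly-6A/E-, CD34+ and CD45f+, in the labels' own spelling. Both genotypes, Irx5KO and WT, had 2 samples each, and the 2 samples of a genotype share 1 deposited peak list. The labels used here do not give the Irx5 allele, the strain, the age or the hair cycle stage, nor whether replicates came from separate animals. Because each genotype has a single list, the spread between samples is unknown and the genotypes cannot be compared by a test. A difference between genotypes cannot be told apart from one between library preparations, nor fewer open cells from less signal per cell. Intervals in brackets are 95% Wilson intervals and cover counting error only. Read depth is unknown from these lists, so a peak missing from a list may be a site that was open but not called.

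BMP ligands bind a complex of type I receptors, such as Bmpr1a, and type II receptors, such as Bmpr2. The receptors phosphorylate SMAD proteins, which then activate target genes, among them the ID genes. ID proteins bind basic helix-loop-helix factors and keep them off DNA. In the hair follicle, BMP signalling holds the bulge stem cells at rest, and antagonists such as Noggin and Gremlin 1 relieve that hold before growth.

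The lists were first checked at known genes. A start peak lay at the transcript start, or at either gene end for genes without a promoter entry. One stood in both lists for 8 of 8 hair follicle stem cell markers (Krt15, Cd34, Lgr5, Sox9, Lhx2, Nfatc1, Tcf7l1 and Itga6). Over all coding genes 62% had one in both lists. Of the basal keratinocyte markers, Krt5 had one in both lists, and Krt14 and Trp63 in neither. Of 16 markers of fibroblasts, immune, endothelial and melanocyte cells, 4 had a start peak in both lists (Col1a2, Vcan, Kdr and Dct). In the Irx5KO list alone 2 had one (Col1a1 and Csf1r), and in the WT list alone 4 (Cd74, Cdh5, Tyr and Kit). The other 6 had no start peak (Pdgfra, Lum, Ptprc, Cd3e, Pecam1 and Mlana). The part of such cells in the results was not tested. At Irx5 itself 23 Irx5KO peaks and 15 WT peaks were listed, 11 and 3 of them genotype-only, with a peak at a gene end in both. Without the allele, these peaks do not check the genotype labels.

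Promoter sequences are shown for 5 genes whose start peaks are compared: Bmpr2 and Bmp6, where a start peak was listed in 1 genotype, and Id2, Id3 and Grem1, where both lists had one. Each runs from 250 bp before to 50 bp after the transcript start, 5′ to 3′ on the gene's strand, from RefSeq on GRCm38.p6, the assembly of mm10. Of the 10 genes, 7 had such a promoter entry. Capitals mark GGCGCC, a palindrome known from SMAD-responsive elements, and GTCT on either strand (AGAC as printed for the other strand), the core of the SMAD box. These motifs do not overlap one another.
Id2, chr12:25096043-25096342, minus strand: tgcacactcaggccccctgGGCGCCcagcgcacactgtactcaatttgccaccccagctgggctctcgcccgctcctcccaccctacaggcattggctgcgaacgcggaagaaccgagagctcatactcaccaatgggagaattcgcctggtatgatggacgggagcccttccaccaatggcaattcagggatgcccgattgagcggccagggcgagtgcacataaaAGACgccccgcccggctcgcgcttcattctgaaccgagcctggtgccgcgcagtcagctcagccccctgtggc
Id3, chr4:136143572-136143871, plus strand: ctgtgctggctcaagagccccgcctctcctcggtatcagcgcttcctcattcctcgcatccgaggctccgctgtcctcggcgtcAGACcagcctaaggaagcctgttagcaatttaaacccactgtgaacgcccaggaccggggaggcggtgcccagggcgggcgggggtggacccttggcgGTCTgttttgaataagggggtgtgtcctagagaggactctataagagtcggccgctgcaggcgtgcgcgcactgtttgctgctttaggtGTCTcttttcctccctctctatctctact
Bmpr2, chr1:59764029-59764328, plus strand: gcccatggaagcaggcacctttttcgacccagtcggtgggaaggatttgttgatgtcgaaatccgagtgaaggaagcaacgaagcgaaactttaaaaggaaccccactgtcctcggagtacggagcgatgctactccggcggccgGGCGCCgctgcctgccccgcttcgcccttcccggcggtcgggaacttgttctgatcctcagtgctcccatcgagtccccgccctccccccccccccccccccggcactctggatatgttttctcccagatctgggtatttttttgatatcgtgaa
Grem1, chr2:113758599-113758898, minus strand: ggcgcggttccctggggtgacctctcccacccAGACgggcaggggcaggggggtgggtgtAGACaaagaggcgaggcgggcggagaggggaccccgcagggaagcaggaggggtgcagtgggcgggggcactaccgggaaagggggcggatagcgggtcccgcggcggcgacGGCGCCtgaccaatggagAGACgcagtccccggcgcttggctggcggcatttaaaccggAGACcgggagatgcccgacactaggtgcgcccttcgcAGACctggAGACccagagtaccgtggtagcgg
Bmp6, chr13:38345466-38345765, plus strand: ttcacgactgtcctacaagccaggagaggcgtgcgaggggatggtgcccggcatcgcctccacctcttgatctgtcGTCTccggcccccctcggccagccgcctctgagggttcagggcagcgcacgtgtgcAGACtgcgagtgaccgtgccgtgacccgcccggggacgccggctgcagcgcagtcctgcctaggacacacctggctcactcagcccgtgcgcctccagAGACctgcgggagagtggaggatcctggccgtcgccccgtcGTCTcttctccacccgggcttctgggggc

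GGCGCC occurred in 4 of the 7 promoters, those of Bmpr1a, Bmpr2, Id2 and Grem1, against 15.3% of 21263 coding-gene promoters of the same length. The members' promoters were also rich in G and C, from 59.3% at Bmpr2 to 79.3% at Bmpr1a, against a median of 56.3% over all promoters. GTCT occurred in 6 of the 7, all but Bmpr2, against 86.8% of all promoters. Grem1 carried the most copies, 6, and Bmp6 had 4. ACANNTGT, the palindrome known for Iroquois proteins and searched as its own reverse complement, was in 0 of the 7 and in 6.06% of all promoters. CCAAT on either strand was in 3 of the 7 and in 38.2% of all promoters. All 3 copies at Id2 lay between 159 and 72 bases before the start. A match is a description of the letters and no evidence of binding.

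A start peak was a peak overlapping this 300 bp window. For Bmp2, Id1 and Nog, which had no promoter entry, it was a peak within 250 bp of either gene end. Start peaks were listed in both genotypes for Bmp4, Bmpr1a, Id2, Id3 and Grem1, and by the gene-end rule for Bmp2 and Id1, 7 of 10 in all. The exceptions were Bmpr2 and Nog, with a start peak in Irx5KO only, and Bmp6, with one in WT only. Of all coding genes with a promoter entry, 62.7% had a start peak in both lists, 6.37% in the Irx5KO list alone, 3.33% in the WT list alone and 27.6% in neither. By the gene-end rule these shares were 59.1%, 8.19%, 3.69% and 29%. Over all coding genes together they were 62%, 6.74%, 3.4% and 27.9%. The 7 of 10 members with a start peak in both lists are near that share, and the exceptions are too few to set against theirs.

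**Figure D1:**
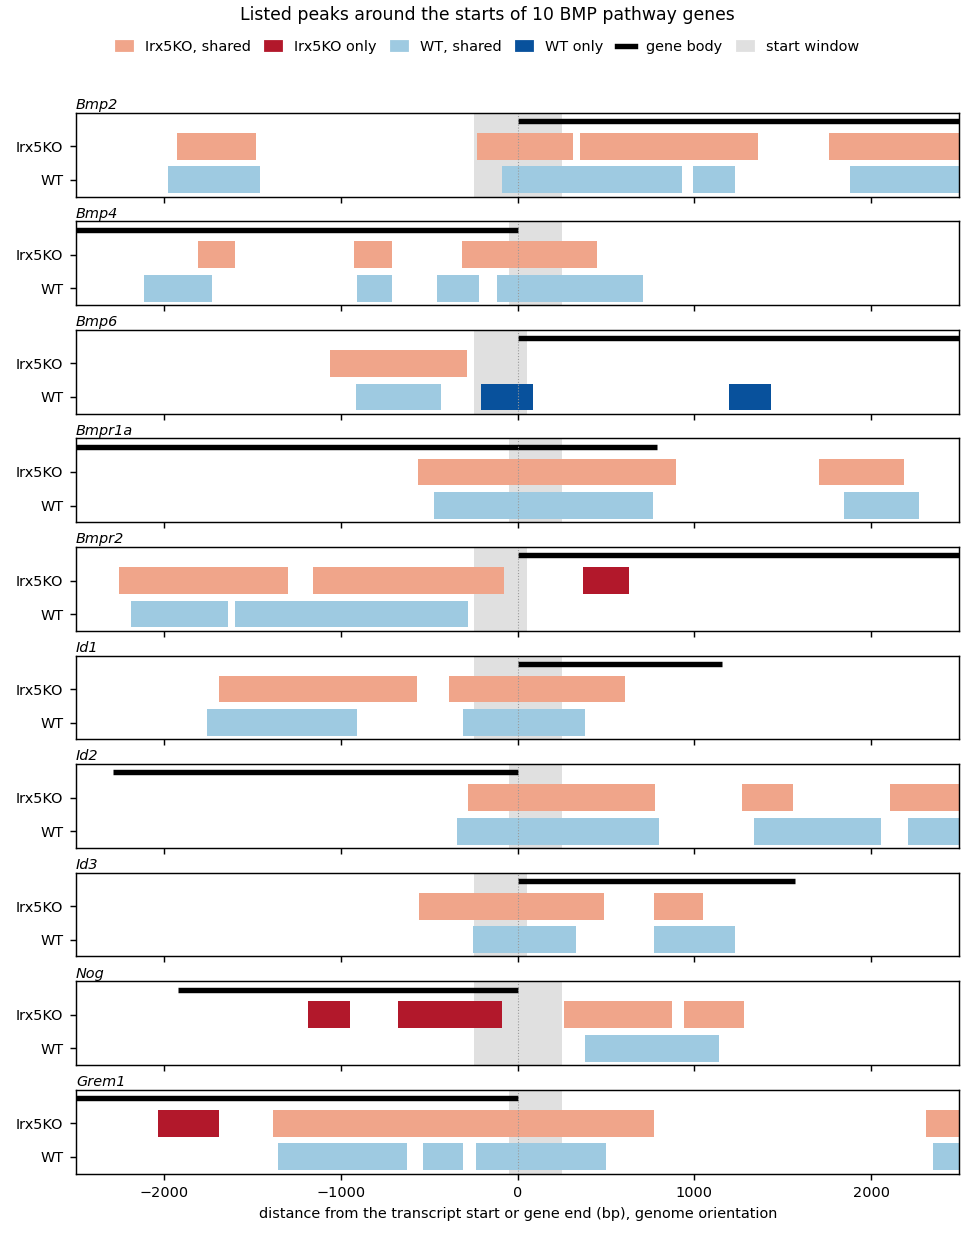
Listed peaks within 2500 bp of the start of each gene, with Irx5KO peaks above and WT peaks below, shared peaks in pale colours; the x axis is the distance in bp from the transcript start, or from the gene end for Bmp2, Id1 and Nog, in genome orientation. Dark bars are genotype-only peaks, the grey band is the start window, and the black line is the gene body. The Irx5KO peak at Bmpr2 reaches into the band and the WT peak stops before it, and at Bmp6 only a WT peak lies over the start.

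At each of the 3 exceptions both lists had a peak within 1000 bp of the start. At Bmpr2, which encodes the type II receptor, both lists held a wide peak just before the start. The Irx5KO peak spanned 59763121–59764200 on chromosome 1, ending 79 bp before the start and covering 172 of the 300 promoter bases. The WT peak spanned 59762681–59764000 and ended 279 bp before the start, outside the window. The GGCGCC of Bmpr2, at 105 to 100 bases before the start, lay inside the Irx5KO peak and outside the WT peak. Just inside the gene an Irx5KO-only peak followed, at 59764651–59764910.

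At Bmp6, a ligand of the BMP family, the WT list had a 290 bp peak over the start, at 38345511–38345800 on chromosome 13. Its score was at percentile 5.69 of the WT list, where a percentile is the share of the same list with an equal or lower score. The Irx5KO list had no peak there. All 4 GTCT copies of the Bmp6 promoter lay inside this WT peak. Both lists shared a peak just upstream, at 38344651–38345430 in Irx5KO and at 38344801–38345280 in WT. The Irx5KO peak thus ended 286 bp before the start.

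At Nog, which encodes the antagonist Noggin, an Irx5KO-only peak of 590 bp lay inside the gene, at 89301881–89302470 on chromosome 11. It ended 89 bp from the upper gene end and stood at percentile 17.1 of its list. A second Irx5KO-only peak lay within the gene, at 89301371–89301610. The WT list had no peak in the Nog body, and its nearest peak, at 89302941–89303700, began 382 bp beyond the same end. That WT peak overlapped Irx5KO peaks by 690 bp. With windows of 1000 bp on each side of the start, all 10 genes had a peak in both lists. A wider window catches more peaks at any gene. The share of all coding genes at this width is not given here, so the number describes the 10 genes only.

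At the ID genes the start was covered in both lists. The Id2 start peak spanned 25095811–25096870 on chromosome 12 in Irx5KO and 25095751–25096890 in WT, so the Irx5KO peak lay wholly within the WT peak. It stood at percentile 88.9 of the Irx5KO list and 68.0 of the WT list, the highest start peak among the 10 genes in each list. The Id3 start peak was 1050 bp wide in Irx5KO, at 136143261–136144310 on chromosome 4, and 580 bp wide in WT, at 136143571–136144150. Its percentiles were 57.0 and 34.9. The Id1 start peak was 1000 bp wide in Irx5KO, at 152735861–152736860 on chromosome 2, and 690 bp in WT, at 152735941–152736630, at percentiles 69.0 and 43.5. At Id1 and Id3 the whole WT start peak lay within the Irx5KO peak.

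The receptor Bmpr1a had a start peak of 1460 bp in Irx5KO and 1240 bp in WT, at percentiles 68.4 and 35.6, with the WT peak wholly inside the other. Bmp4, a ligand made in the dermal papilla, had start peaks of 770 and 830 bp at percentiles 51.6 and 37.9. Bmp2 had 540 and 1020 bp at percentiles 49.8 and 49.6. At Grem1, which encodes Gremlin 1, a single Irx5KO peak of 2160 bp, at 113757261–113759420 on chromosome 2, faced 3 WT peaks, the one over the start being 740 bp wide. Their percentiles were 38.7 in Irx5KO and 33.7 in WT.

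At all 7 genes with a start peak in both lists, the Irx5KO percentile was the higher number, by as little as 49.8 beside 49.6 at Bmp2. The medians over coding genes had the same order. Over 10967 coding genes with a promoter entry and a start peak in both, the median percentile was 65.4 in the Irx5KO list and 52.7 in the WT list. Those medians leave out genes under the gene-end rule, such as Bmp2 and Id1. The share of coding genes with the higher number in Irx5KO is not given here, so the 7 members cannot be set against it. Ranks from separately called lists of different length do not measure a change in accessibility. Score also rose with peak width, with a Spearman rho across peaks of 0.661 in Irx5KO and 0.684 in WT.

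Across the full windows most peaks were shared, 128 of 179 in the Irx5KO list (71.5%, 64.5 to 77.6) and 129 of 172 in the WT list (75%, 68.0 to 80.9). The remaining 51 Irx5KO and 43 WT peaks were genotype-only. In the whole lists 21.8% of the Irx5KO entries and 26.6% of the WT entries were. The whole-list shared fraction of 78.2% in Irx5KO lies just above the members' interval, and the 73.4% in WT lies within it. Over the windows of all coding genes 76.1% and 73.5% were shared, both within the members' intervals. Of the members' genotype-only peaks Irx5KO held 54.3% (44.2 to 64.0). Over the windows of all coding genes that share was 47.1% (46.9 to 47.4), within the members' interval. The median difference per gene was 1 peak more in Irx5KO over the members and 0 over all coding genes.

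Per gene, Irx5KO had the larger number of genotype-only peaks at 6 members and WT at 3, with equal numbers at Id2. Of all coding genes 46.6% leaned to Irx5KO, 41.3% to WT and 12.1% to neither, so the members' split is near the background. Of the genotype-only peaks that overlapped a gene body, 11 of 19 were in Irx5KO (57.9%, 36.3 to 76.9). Within the gene body plus 10 kb 18 of 40 were (45%, 30.7 to 60.2), and from 10 to 50 kb away the numbers were 33 in Irx5KO and 21 in WT. Both intervals contain the overall 54.3%, but these inner zones are nested and are part of that total. The shares over all coding genes in the same zones are not given here. A trend with distance was not tested, and none is read here.

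**Figure D2:**
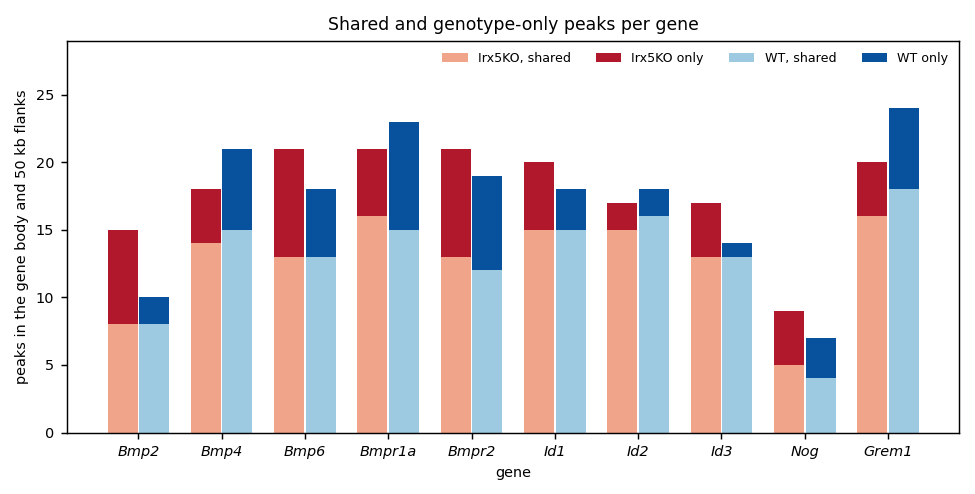
Number of listed peaks (y axis) in the body and 50 kb flanks of each gene (x axis), with Irx5KO in red and WT in blue; pale segments are shared peaks and dark segments genotype-only peaks. Bmp2 has 7 Irx5KO-only and 2 WT-only peaks, while Bmpr1a has 5 and 8.

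By role, the 3 ligands held 19 Irx5KO-only and 13 WT-only peaks, and the 2 receptors 13 and 15. The 3 ID genes held 11 and 6, and the 2 antagonists 8 and 9. The Irx5KO-only shares were 59.4% (42.3 to 74.5), 46.4% (29.5 to 64.2), 64.7% (41.3 to 82.7) and 47.1% (26.2 to 69.0) in that order. All 4 intervals overlapped one another, so no order of the roles can be read from them. The ID genes had the highest shared fraction, 79.6% (67.1 to 88.2) in Irx5KO and 88.0% (76.2 to 94.4) in WT, with intervals that overlap those of the other roles. Over the windows of all coding genes 76.1% were shared in Irx5KO, within the ID interval, and 73.5% in WT, below it. The ID genes were picked here as the highest of the 4 roles, and this difference was not tested.

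Among the ligands, Bmp2 (chromosome 2, 133552159 to 133562896) had the largest excess in Irx5KO. Its window held 15 Irx5KO and 10 WT peaks, 7 and 2 of them genotype-only, with none of the genotype-only peaks in the gene body. The highest-scored of these, at 133527911–133528400, lay 23.8 kb from the lower gene end at percentile 82.1 of the Irx5KO list. It was the highest-ranked genotype-only peak of all 10 genes in either list. The highest-scored peak of the window was shared, at 133583711–133584400 in Irx5KO with borders 10 bp away in WT, at percentiles 87.9 and 87.4.

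Bmp4 (chromosome 14, 46383525 to 46390669) had 18 Irx5KO and 21 WT peaks, 4 and 6 of them genotype-only. No Irx5KO-only peak there exceeded percentile 11.1, and no WT-only peak exceeded 35.8. Its most prominent peak was a shared one of 2450 bp, 35.9 kb downstream of the start, at 46352291–46354740 in Irx5KO and shifted by 10 bp in WT. It stood at percentiles 97.0 and 96.4. No peak of the Bmp4, Bmp2 or Nog windows had its midpoint in another coding gene.

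Bmp6 (chromosome 13, 38345716 to 38500314) is a long gene with 21 Irx5KO and 18 WT peaks, 8 and 5 of them genotype-only. The highest-ranked peak of all 10 loci stood 6.93 kb upstream of its start in Irx5KO, at 38338111–38338790, and 7.02 kb upstream in WT, at 38338051–38338700. It was at percentile 99.8 of both lists, with 590 bp in common. Inside the gene, peaks at 38371241–38372990 and at 38392231–38392690 had identical borders in both lists. Within the gene body 2 genotype-only peaks were in Irx5KO and 4 in WT, the reverse of the order over the whole window. The Irx5KO-only peak with the highest score, at percentile 74.1, lay inside the neighbouring gene Txndc5.

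**Figure D3:**
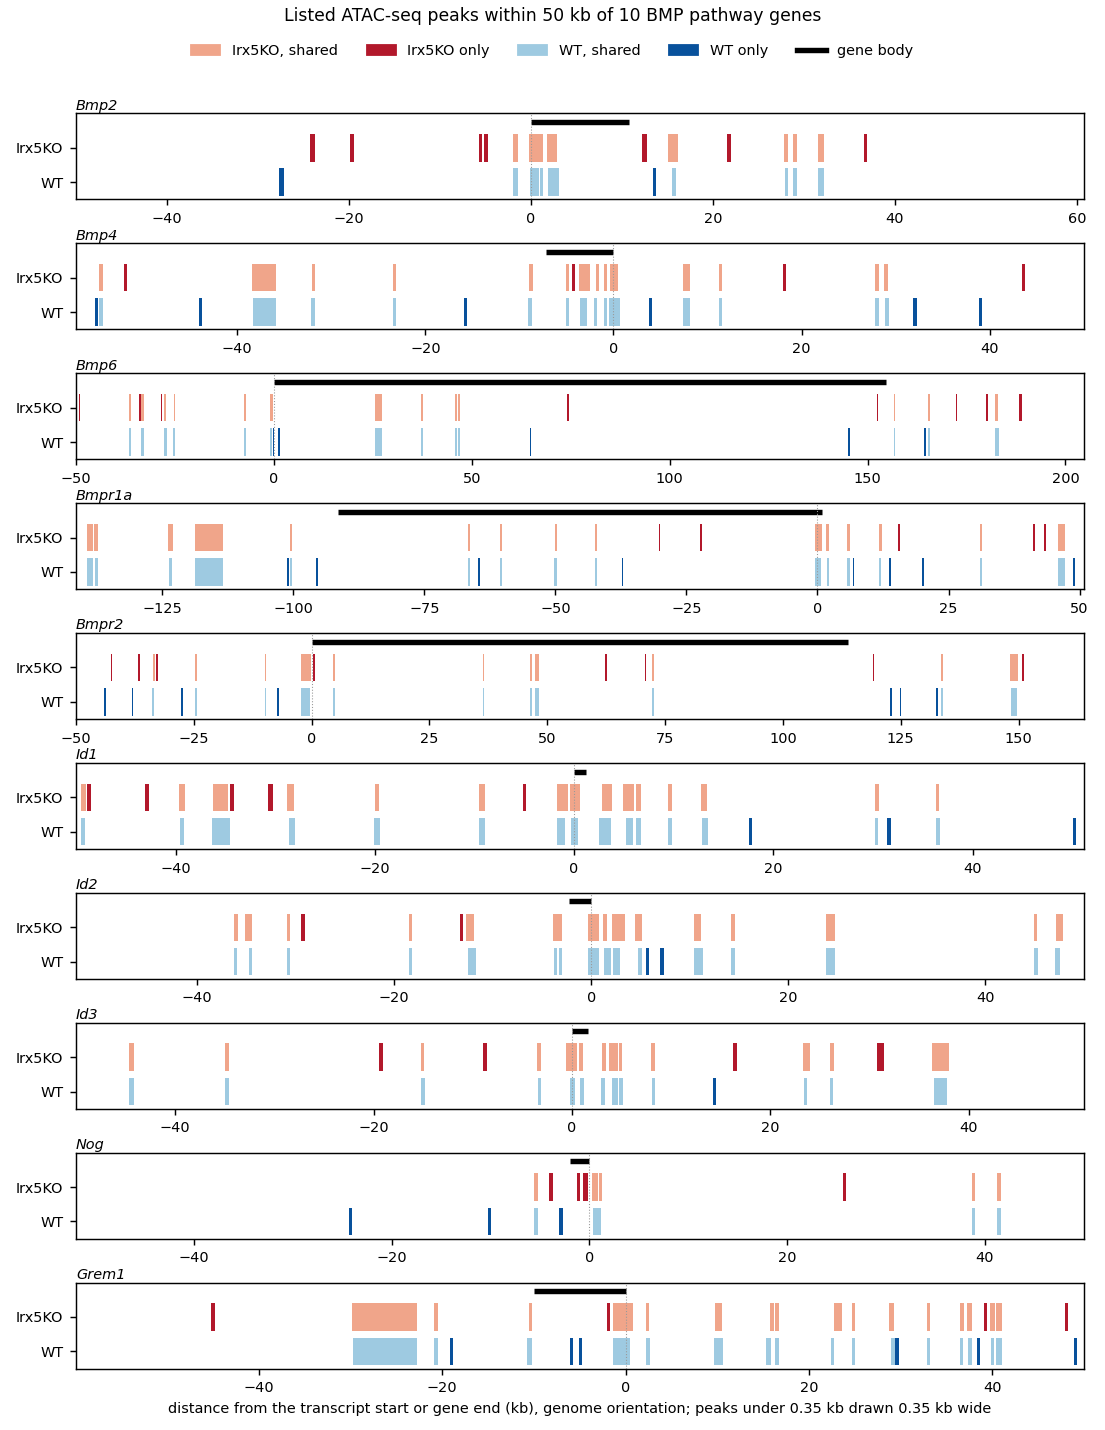
Listed peaks across the body and 50 kb flanks of each gene, with Irx5KO above and WT below; the x axis is the distance in kb from the transcript start or gene end, in genome orientation and on a scale set per gene. Pale bars are shared and dark bars genotype-only peaks. The widest shared blocks are the 5300 bp peak near Bmpr1a, the 2450 bp peak near Bmp4 and the peak of about 7 kb near Grem1, which is 7030 bp in Irx5KO and 6950 bp in WT.

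Both receptors had nearly equal numbers in the 2 lists. Bmpr1a (chromosome 14, 34411061 to 34503336) had 21 Irx5KO and 23 WT peaks, 5 and 8 genotype-only, and Bmpr2 (chromosome 1, 59764279 to 59878081) had 21 and 19, with 8 and 7. At Bmpr1a the most prominent peak had the same borders in both lists, 34383851 to 34389150, but lay inside the neighbouring gene Mmrn2. Within Bmpr1a 2 Irx5KO-only and 2 WT-only peaks were listed. The Irx5KO-only ones, at 34472261–34472570 and at 34480081–34480440, stood at percentiles 52.6 and 58.1. At Bmpr2 the highest-scored peak was intragenic, 46.4 kb downstream of the start, at 59810671–59811080 in Irx5KO and from 59810651 in WT, at percentiles 95 and 90.5. Genotype-only peaks within the Bmpr2 body numbered 3 in Irx5KO and 0 in WT.

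The ID genes are short and had no genotype-only peak in the gene body. Id1 (chromosome 2, 152736251 to 152737410) had 20 Irx5KO and 18 WT peaks, 5 and 3 genotype-only. Its most prominent peak lay just outside the gene, at 152734561–152735680 in Irx5KO and at 152734491–152735340 in WT, with 780 bp in common, at percentiles 86.7 and 79.2. Of the Id1 window's peaks 10 in Irx5KO and 9 in WT had their midpoint inside a neighbouring gene, H13, Mcts2, Cox4i2 or Bcl2l1. A run of 7 shared Irx5KO peaks, with 7 shared WT peaks beside them, stretched over 152734561–152749590, around and beyond the gene.

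Id2 (chromosome 12, 25093799 to 25096092) had the fewest differences in number, 17 and 18 peaks with 2 genotype-only peaks in each list. In Irx5KO its start peak was also the highest-scored peak of the window, which was so for no other member in either list. In WT the highest-scored peak lay 23.9 kb upstream, at 25119951–25120810, at percentile 73.1, and it was shared. Id3 (chromosome 4, 136143822 to 136145392) had 17 and 14 peaks, 4 and 1 genotype-only. Its highest-scored Irx5KO peak, at 136147551–136148450, lay 3.73 kb downstream of the start at percentile 81.6 and was shared. All 4 Irx5KO-only peaks of Id3 were at or under percentile 19.4.

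Among the antagonists, Nog (chromosome 11, 89300638 to 89302559) had the fewest peaks of the 10 genes, 9 in Irx5KO and 7 in WT, with 4 and 3 genotype-only. A pair of shared peaks about 40 kb beyond the upper gene end carried its highest scores. One spanned 89341231–89341570 in Irx5KO at percentile 81.9 and 89341221–89341590 in WT at 85.9. The other spanned 89343791–89344170 in Irx5KO at percentile 96.7 and 89343771–89344170 in WT at 85.9.

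Grem1 (chromosome 2, 113748675 to 113758648) had the most WT peaks, 24, beside 20 in Irx5KO, with 6 and 4 genotype-only. The widest peak of all 10 loci lay 22.8 kb downstream of its start, at 113728841–113735870 in Irx5KO and at 113728931–113735880 in WT, in no coding gene. It stood at percentiles 99.5 and 99.7, with 6940 bp in common. In each list 11 of the peaks of this window had their midpoint in Fmn1 or Scg5, the neighbouring genes.

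By covered bases the lists overlapped most at Bmpr1a, where 69.5% of the bases covered by either list were covered by both, and least at Nog, with 40.2%. Of the 13.0 kb covered by both lists at Bmpr1a, 5300 bp were the single peak inside Mmrn2 with the same borders in both. Overlap and coverage over all coding genes are not given here, so these values describe the 10 genes only. At Bmp2 this share was 47.1%, and at Id3 54.1%. At Id3 the Irx5KO peaks covered 8.48 kb and the WT peaks 5.54 kb of a 101.6 kb window. At Bmp4 the order was opposite, with 9.07 and 10.1 kb. Coverage ranged from 3.20% of the window at Nog to 15.5% at Grem1 in Irx5KO, and from 2.69% to 14.8% at the same genes in WT.

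**Figure D4:**
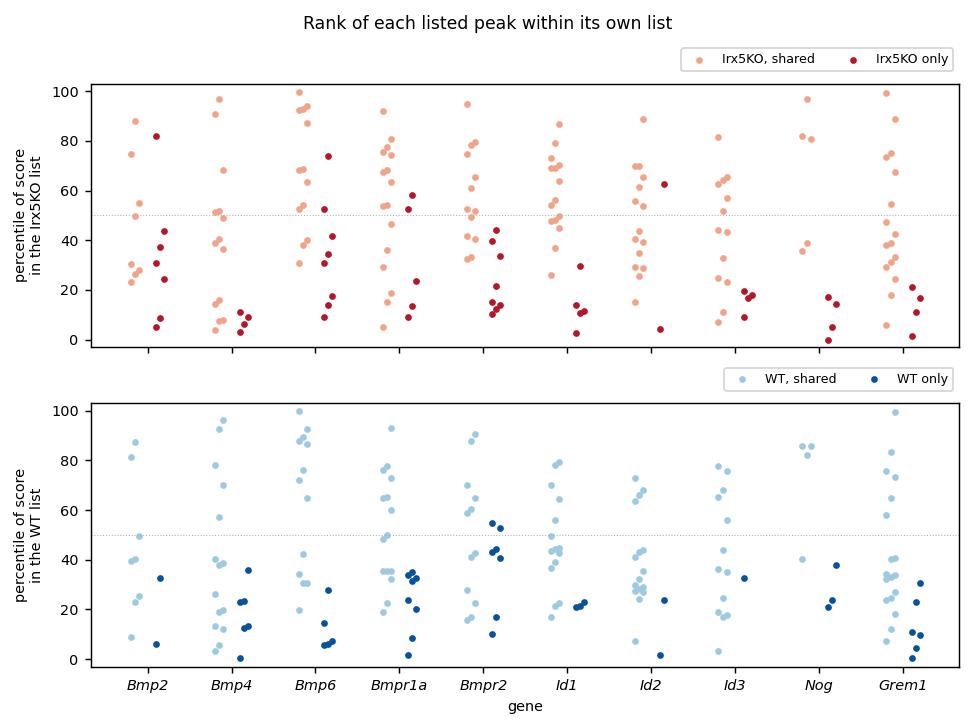
Percentile of each peak's score within its own list (y axis; 100 is the highest score) for the 10 genes (x axis), with the Irx5KO list above and the WT list below; each point is a peak, pale if shared and dark if genotype-only. The dark points lie low, with medians of 16.6 in Irx5KO and 23.1 in WT, and the dark point at Bmp2 stands at 82.1.

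Genotype-only peaks ranked low and were narrow at these genes, as they were in the whole lists. Their median percentile was 16.6 in Irx5KO and 23.1 in WT, against 51.8 and 41.3 for the shared peaks of the same genes. In the whole lists these medians were 15.8 and 18.2 for genotype-only peaks and 60.3 and 62.7 for shared peaks. The median width at the members was 270 and 260 bp against 480 and 460 bp for shared peaks, and in both whole lists 250 bp against 500 bp. In the lowest 25% of scores of each list 32.7% (21.5 to 46.2) of the members' Irx5KO peaks and 50.9% (38.3 to 63.4) of their WT peaks were shared. Over the whole lists the shared fraction of that range was 40.7% in Irx5KO and 32.7% in WT, the opposite order, and the WT value lies below the members' interval. In the highest 25% of scores 24 of 25 were shared in Irx5KO and 26 of 26 in WT, near the 99.3% and 99.4% of the whole lists. The exception is the Irx5KO-only peak near Bmp2.

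Fewer of the members' peaks were high-scored or wide than around coding genes in general, a difference that was not tested. Among the highest-scored 25% of their list were 14% (9.64 to 19.8) of the Irx5KO peaks and 15.1% (10.5 to 21.2) of the WT peaks at the 10 genes. Over all coding-gene windows these shares were 23.3% and 23.2%. Peaks of 2000 bp or wider made up 2.23% (0.872 to 5.6) and 1.74% (0.595 to 5) at the members, against 7.35% and 7.37% around all coding genes. Identical borders in both lists were found for 4 of the 179 Irx5KO peaks, against 2.77% of the whole Irx5KO list.

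The other genes of the pathway were taken as a list of 40 further ligands, receptors, SMADs, antagonists and targets, all 40 of them matched. Their genotype-only peaks numbered 278 in Irx5KO and 248 in WT, of which the first make up 52.9% (48.6 to 57.1), close to the share at the 10 genes. Over the windows of all coding genes that share was 47.1%, below this interval, a difference that was not tested. Irx5KO had the larger number at 21 of the 40 and WT at 15, with equal numbers at 4 and a median difference of 1. Of all coding genes 46.6% leaned to Irx5KO, 41.3% to WT and 12.1% to neither, with a median difference of 0. Start peaks stood in both lists for 31 genes and in neither for 5, beside 62% and 27.9% of all coding genes. For 0 of the 40 was there one in the WT list alone, and for 4 in the Irx5KO list alone. Of all coding genes 3.4% and 6.74% had such a peak, and 0 and 4 of 40 are too few to set against these shares. Among the 4 were the ligand genes Bmp8a and Bmp8b and the antagonist gene Chrdl2.

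The largest differences toward Irx5KO were at Rgma, a BMP co-receptor gene with 11 Irx5KO-only and 3 WT-only peaks, Chrdl2 with 7 and 0, and Atoh8, a transcription factor gene with 13 and 7. Toward WT they were at Msx1, a homeobox gene induced by BMP, with 5 and 13, the ligand gene Bmp7 with 9 and 16, and Hey1, a transcriptional repressor gene, with 4 and 11. Gata3 and Twsg1, each with 9 and 3, tied with Atoh8, which was named by symbol order. None of these differences was tested against a spread between samples.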

How the data were processed

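The authors made the peak lists on build mm10. Genrich 0.6, Bowtie2, cutadapt 2.9, FastQC, ChIPseeker 1.24.0 and deepTools 3.4.2 are named, per the submitters' processing notes. Which step each tool did, with which filters, settings or Tn5 shift, is not given in the sources used here. Per the labels, 1 list belongs to both replicates of a genotype. The deposited score is the authors' own whole number per peak, at least 50, and ranked peaks within a list only. The deposited columns for signal, p and q held only 0. The summit offset that the authors deposited beside the score was not used. Entries on unplaced contigs (Irx5KO 1188, WT 1733) were left out.

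Gene spans and promoters came from RefSeq tables of GRCm38.p6, with a promoter entry for 17492 of 21887 coding genes. The members, gene lists, named-gene rule and alternatives were chosen with earlier results of these data known. Besides the members, the rule named other pathway genes with a start peak in 1 list only, and the 3 with the largest difference each way, ties by symbol. A gene that the rule names is not reported here. At each member it named the start peak, the highest-scored peak and the highest-scored genotype-only peak. Other single peaks in the text were chosen after their values were seen. A peak lay inside a neighbouring gene if its midpoint did. Overlaps were computed in Python 3.11.15 (numpy 2.4.6, pandas 2.3.3, scipy 1.17.1, matplotlib 3.10.9), tested on simulated data, and gave the same shared numbers as bedtools 2.31.1. Alternatives changed the score threshold, width limit, list length, overlap rule, windows and members.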

Additional observations from a re-analysis of the deposited data

How the results depend on the processing

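The Irx5KO-only share of 54.3% stayed within its interval under a width limit of 2000 bp, equal list lengths, a 50% overlap, the gene body alone, flanks of 10 and 100 kb, without Bmpr2 and without peaks inside other genes, with values from 45% to 57.9%. So did both shared fractions. With only the upper 50% of scores counted, and sharing still judged against the full other list, the Irx5KO-only share was 75% from 8 peaks. By the same rule the shared fractions were 91.8% in Irx5KO and 96.3% in WT, which does not measure agreement between the cut lists. Start peaks were counted in the cut lists, and 1 gene, Id2, had one in both. Among the 100000 highest-scored peaks, judged in the same way, the share was 100% from 1 peak and the fractions were 95.2% and 100%. There 0 genes had a start peak in both lists. The number of members with more Irx5KO-only peaks, a count added after seeing the data, went from 6 to 1. That number was 3 in the gene body alone. In the upper 50% by score per bp, an alternative chosen after seeing the data, the Irx5KO-only share was 50% and 0 genes had a start peak in both lists. A threshold leaves fewer peaks to count. Single-gene shares rest on 4 to 15 genotype-only peaks in the main setting and on as few as 1 under the alternatives. They moved out of their intervals in 19 of 72 cases. No paired analysis was possible because the deposited lists pool the replicates, and for the same reason no replicate could be left out. Depth limits are unknown.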
